A study of Mus musculus with 8 samples.

Results

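Phase II conjugation enzymes attach a small polar group to drugs, hormones, bile pigments and reactive products of metabolism, so that these can leave the cell and the body. The set studied here comprises every gene symbol of the UDP-glucuronosyltransferases (Ugt1a, Ugt2a, Ugt2b and Ugt3a), the glutathione S-transferases (Gsta, Gstm, Gstp, Gsto, Gstk, Gstt and Gstz) and the sulfotransferases (Sult1 to Sult5) that matched a fixed name pattern. The pattern itself uses no measured value, but earlier results of these data were known when it was chosen. It held 62 of 32285 listed genes: 21 Ugt, 22 Gst and 19 Sult.

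Ugt enzymes sit in the endoplasmic reticulum and transfer glucuronic acid from UDP-glucuronic acid. Gst enzymes couple glutathione to electrophiles, and Sult enzymes transfer a sulfonate group from the donor PAPS to phenols, steroids, bile acids and amines. The liver, above all the hepatocyte, is the main site of all these reactions, and in rodents many of the genes differ between the sexes and along the axis from portal vein to central vein.

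Single-nucleus RNA was sequenced from the snap-frozen livers of 8 male DIAMOND mice, which are 129A1/SvIm and C57BL/6J crosses fed a high-fat Western diet with sugar water, under which they can develop fatty liver disease and liver cancer. All mice began on the Western diet. The WD tumour mice (n = 3) stayed on it for 48 weeks and developed hepatocellular carcinoma, while the RD mice were returned to standard chow after 36 weeks, of which 2 developed carcinoma (RD tumour) and 3 had none detected (RD no tumour). No group was kept on chow throughout, the sources used here do not say whether the sampled pieces held tumour, and their statements on age at sampling disagree, so that no age is given.

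Each library is 1 mouse, and a value is a count of unique molecular identifiers (UMIs, each standing for 1 captured RNA molecule) scaled to the total of all UMIs in the same set of nuclei (CPM). Barcodes with at least 300 detected genes were kept, between 6048 and 20000 per library and 79446 in all, with totals of 17948627 to 34363108 UMIs and medians of 1120 to 2656 UMIs per nucleus. RD tumour 1 stood apart: it held exactly 20000 barcodes, its whole-library profile correlated with the others at r = 0.798 to 0.883 across 19087 genes, against at least 0.919 among the other 7 libraries, and its neutrophil marker sum was 2824 CPM. In RD tumour 2 the 6 pancreatic acinar markers, of which 2 were detected in every library, summed to 315 CPM, against 3.52 to 9.93 CPM in the other 7. In WD tumour 2 the 5 erythroid markers, all detected in every library, summed to 30246 CPM, against 1191 to 7607 CPM in the other 7. The median mitochondrial share was 7.91% in WD tumour 1 and 7.51% in WD tumour 3, and 1.30% to 3.28% elsewhere. Markers of liver cells were present in every library, including all 10 hepatocyte markers, and no pair of libraries shared more than 0.676% of the smaller library's barcodes. Y-linked Ddx3y lay between 68.8 and 154 CPM in the 8 libraries, as the male label requires.

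The promoters below belong to members on which the results turn: Sult2a8, Gstm2 and Gstm3 had the highest log2 differences between pericentral and periportal hepatocyte nuclei, and Gsta3 had the highest mean CPM of the Gst family. Each line gives the 250 bases before the RefSeq transcript start, 5′ to 3′ on the gene's strand, in build GRCm38.p6. Sult2a8 lies at chr7:14446588-14446837 on the minus strand, Gstm2 at chr3:107986421-107986670 on the minus strand, Gstm3 at chr3:107969175-107969424 on the minus strand and Gsta3 at chr1:21240335-21240584 on the plus strand. Capitals mark a TCF/LEF core in Sult2a8, which reads CTTTGAT on the other strand and begins 203 bases before the start, and an antioxidant response element core, TGACNNNGC, in Gsta3, which begins 121 bases before the start.
Sult2a8: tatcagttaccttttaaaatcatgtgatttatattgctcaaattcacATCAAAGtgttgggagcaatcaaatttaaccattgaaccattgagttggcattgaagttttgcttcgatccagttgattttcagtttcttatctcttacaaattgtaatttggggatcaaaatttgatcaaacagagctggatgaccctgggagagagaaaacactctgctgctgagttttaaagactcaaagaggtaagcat
Gstm2: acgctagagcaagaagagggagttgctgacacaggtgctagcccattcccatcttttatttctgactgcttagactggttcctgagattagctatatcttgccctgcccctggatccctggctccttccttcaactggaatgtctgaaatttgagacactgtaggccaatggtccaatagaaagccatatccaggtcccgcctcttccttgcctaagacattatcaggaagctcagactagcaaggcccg
Gstm3: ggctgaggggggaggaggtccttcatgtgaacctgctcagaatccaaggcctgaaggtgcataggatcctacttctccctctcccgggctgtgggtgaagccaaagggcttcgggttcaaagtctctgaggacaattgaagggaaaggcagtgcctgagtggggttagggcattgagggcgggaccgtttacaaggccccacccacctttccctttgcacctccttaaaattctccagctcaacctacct
Gsta3: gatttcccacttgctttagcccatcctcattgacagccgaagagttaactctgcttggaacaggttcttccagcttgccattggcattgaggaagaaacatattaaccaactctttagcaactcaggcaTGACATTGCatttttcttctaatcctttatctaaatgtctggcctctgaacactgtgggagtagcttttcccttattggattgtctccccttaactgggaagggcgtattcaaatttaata
Both strands of 32851 RefSeq promoter windows of this length were searched. The TCF/LEF core, the letters bound by the factors of Wnt signalling, was in 3.21% of all windows and, among 65 windows of 54 members, in that of Sult2a8 alone. The antioxidant core, to which Nrf2 binds, was in 10.2% of all windows and in those of Gsta3, Gstm5 and Gstm7. A STAT element, TTCNNNGAA, was in 7.02% of all windows and in those of Gsta1, Gstm6, Sult3a1 and Ugt1a6a. A match is a description of the letters only. Sult2a8 has 2 listed starts, and the window of 1 is shown. In the GENCODE M21 annotation the gene body of Sult2a8 extends to chr7:14446769, so part of the window shown lies inside it.

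All 62 members were found in the GENCODE M21 annotation of GRCm38, used here for positions. Gene bodies of the 9 Ugt1a members overlap on chromosome 1, where they share their last exons. A read of a 3′ assay that falls there does not tell these members apart. Members took 644813 UMIs in all, from 0.119% of a library's UMIs in RD tumour 1 to 0.457% in WD tumour 1. Several paralogs share exonic sequence. Gsta1 had 56.6% of its exonic 31-base words in common with another member, Gstp2 54.8%, Gstp1 38.5%, Sult2a1 53.8%, Sult2a2 74.5% and Ugt2b5 55.8%. The values of such genes are less certain, and the effect of the sharing on their counts was not measured. Sult2a8 shared none and Gsta3 0.229%.

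Of the 62 members, 53 passed the filter on low counts in whole libraries and 52 in hepatocyte-gated nuclei. The 9 that did not pass in whole libraries were Gstt4, Sult1c1, Sult2a4, Sult2a6, Sult3a2, Sult4a1, Ugt2a1, Ugt2a2 and Ugt2b38. They had 0 to 66 UMIs each over all 8 libraries, and 61 of the 66 UMIs of Sult2a6 came from RD tumour 1. Sult2a3 passed only in whole libraries.

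Hepatocyte-gated nuclei (at least 2 hepatocyte markers, and fewer than 2 of any other class; 43860 in all) were the largest gated class. In them the 62 members summed to 2688, 4853 and 4536 CPM in RD no tumour 1 to 3, to 1227 and 3802 CPM in RD tumour 1 and 2, and to 5251, 1991 and 5169 CPM in WD tumour 1 to 3. The order of mice did not follow the groups: RD tumour 1, WD tumour 2 and RD no tumour 1 were the 3 low libraries, 1 from each group. All groups overlapped. In the same nuclei the 6 neutrophil markers, all detected in every library, summed to 2964, 220 and 784 CPM in these 3 libraries and to 24.8 to 118 CPM in the other 5. The 10 pericentral markers summed to 416, 1815 and 1338 CPM in the 3, and to 2301 to 3871 CPM in the other 5. The 9 periportal markers were low in the same 3 libraries, at 2749, 1611 and 2544 CPM, against 3291 to 4272 CPM in the other 5. The erythroid markers summed to 51635 CPM in WD tumour 2 and to 1722 to 9977 CPM in the other 7. The part of any of these in the members' values was not tested.

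The families differed in how far they spread between mice. The Ugt sum ran from 213 CPM in RD tumour 1 to 1401 CPM in RD no tumour 2, and without RD tumour 1 its lowest value was 697 CPM in WD tumour 2. The Gst sum ran from 599 CPM in RD tumour 1 to 2775 CPM in WD tumour 1, with RD no tumour 1 at 638 CPM and WD tumour 2 at 790 CPM beside the lowest. The Sult sum ran from 415 CPM in RD tumour 1 to 1551 CPM in RD no tumour 3.

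**Figure D1:**
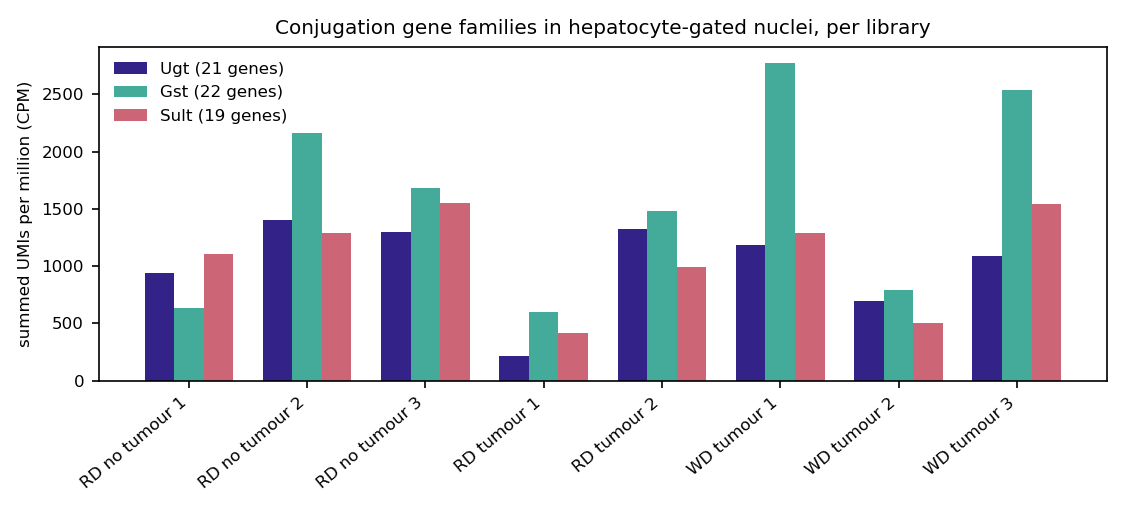
Bars give the summed CPM of the 21 Ugt, 22 Gst and 19 Sult genes in hepatocyte-gated nuclei of each of the 8 mice. RD tumour 1 has the lowest bar in every family, and the Gst bars run from 599 to 2775 CPM.

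RD tumour 1 was the lowest of the 8 libraries for 29 of the 52 members tested in hepatocyte-gated nuclei, beside 30.97% of all 17046 genes tested there. These 29 included 17 of the 18 Ugt members tested, all but Ugt2b37. The same library was the highest for 9 members, beside 37.9% of all genes: Gsta1, Gstm3, Gsto1, Gsto2, Gstp1, Sult2a1, Sult2a2, Sult2a5 and Sult2b1. RD no tumour 3 was the highest for 14 members, among them 6 of the Ugt1a cluster, beside 12.0% of all genes. WD tumour 1 was the highest for 12, beside 6.10% of all genes.

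**Figure D2:**
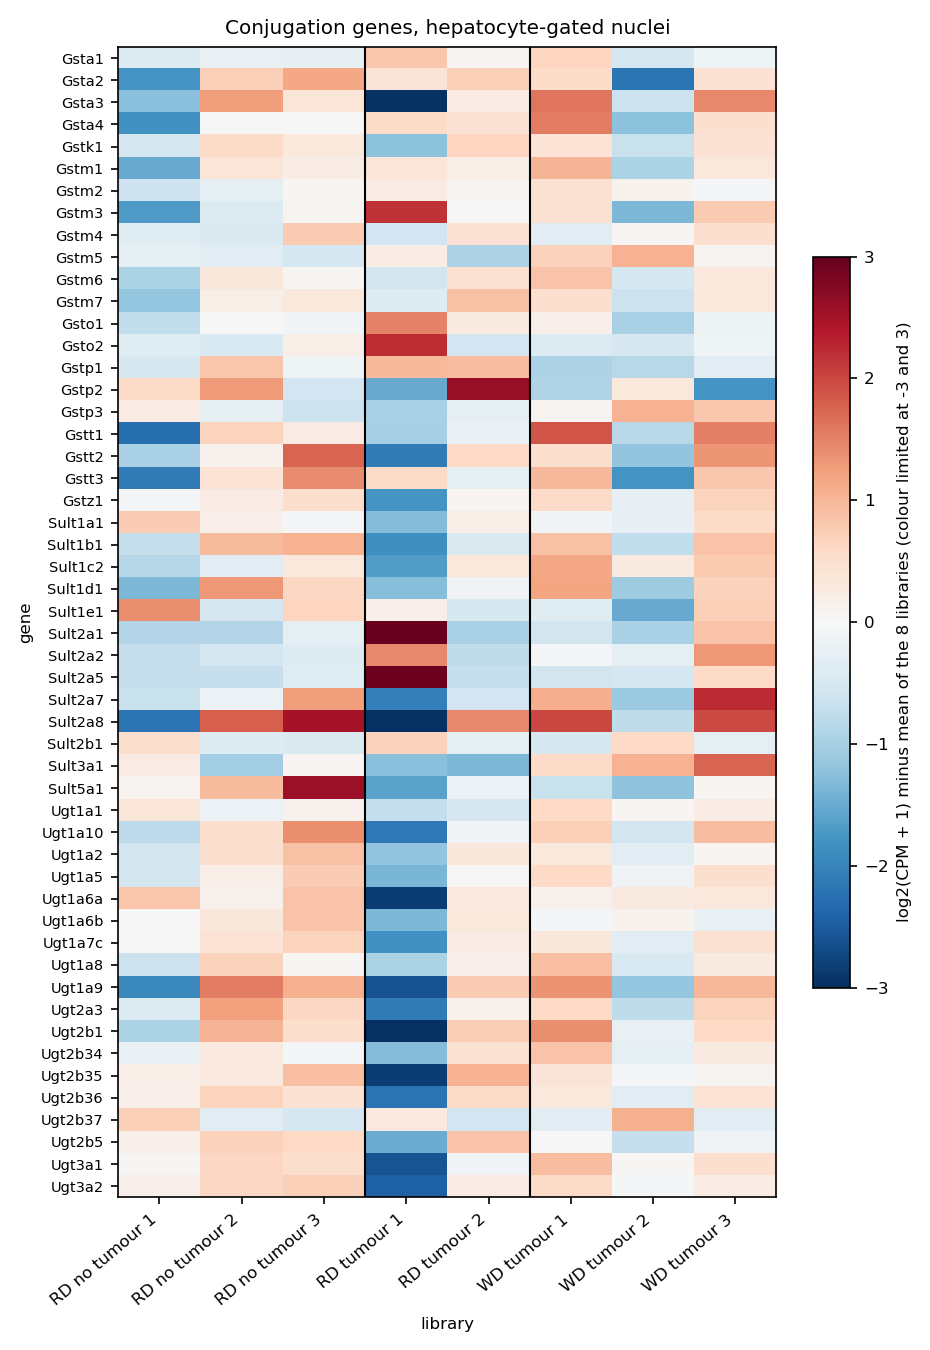
Level of each tested member in each of the 8 mice, in hepatocyte-gated nuclei, drawn as log2(CPM + 1) minus the gene's mean over the 8 mice. RD tumour 1 is the column with 29 lowest and 9 highest values.

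Among the glucuronosyltransferases, Ugt2b36, Ugt2b5 and Ugt3a2 had the highest mean CPM. Ugt2b36, of the subfamily that acts on steroids, bile acids and drugs, measured 356, 504 and 433 CPM in RD no tumour, 67.7 and 476 CPM in RD tumour, and 396, 254 and 427 CPM in WD tumour (hepatocyte-gated nuclei, as for all member values until the cell classes are compared). Only RD tumour 1 left the range of the RD no tumour mice by more than a factor of 2. Ugt2b5 measured 222, 321 and 301 CPM in RD no tumour, 70.0 and 358 CPM in RD tumour, and 196, 123 and 183 CPM in WD tumour. The WD tumour mice all lay below the RD no tumour mice, and the RD tumour mice lay on either side of both groups. Ugt3a2 was at 77.9, 108 and 116 CPM, at 11.9 and 83.2 CPM, and at 105, 66.9 and 82.1 CPM in the same order of groups, and all 3 groups overlapped.

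Ugt1a1, the enzyme that conjugates bilirubin, was at 12.6, 8.39 and 10.7 CPM in RD no tumour, 5.52 and 6.62 CPM in RD tumour, and 15.1, 10.1 and 11.4 CPM in WD tumour. Both RD tumour mice lay below the other 6. By edgeR's quasi-likelihood test with Benjamini-Hochberg adjustment, the log2 difference was -0.98 (SE 0.34, adjusted p = 0.369) for RD tumour against RD no tumour and 1.17 (SE 0.35, adjusted p = 0.519) for WD tumour against RD tumour, neither past the threshold. Ugt1a6a, a phenol-conjugating member, was at 77.1, 47.2 and 78.4 CPM in RD no tumour, 5.09 and 52.2 CPM in RD tumour, and 47.0, 51.3 and 53.8 CPM in WD tumour.

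Of the transferases for glutathione, Gsta3, the mouse enzyme known for detoxifying the epoxide of aflatoxin, varied widely within every group. It measured 244, 1387 and 753 CPM in RD no tumour, 74.4 and 683 CPM in RD tumour, and 1772, 374 and 1588 CPM in WD tumour. High and low libraries occurred in every group, and no group was separate. The log2 difference was 1.86 (SE 1.16, edgeR quasi-likelihood test) for WD tumour against RD tumour, 0.97 (SE 1.17) without RD tumour 1 and 4.27 (SE 1.46) without RD tumour 2. Its gene body overlaps an antisense gene, as do those of Gstm5, Gsto1, Gsto2, Gstz1, Sult1a1, Sult2b1 and the Ugt1a members. The sources used here do not say how strand was treated in counting.

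The pi class differed among its own members. Gstp1 measured 20.9, 52.9 and 26.6 CPM in RD no tumour, 58.0 and 56.5 CPM in RD tumour, and 14.8, 16.0 and 22.8 CPM in WD tumour, so that both RD tumour mice were above the other 6. Gstp3 measured 11.3, 7.46 and 5.69 CPM in RD no tumour, 4.31 and 7.65 CPM in RD tumour, and 10.0, 20.4 and 17.4 CPM in WD tumour, where the WD tumour mice were above both RD tumour mice. For WD tumour against RD tumour the log2 differences were -1.52 for Gstp1 (SE 0.42) and 1.56 for Gstp3 (SE 0.48), both with adjusted p = 0.519 in edgeR's quasi-likelihood test. These 2 opposite differences did not pass the threshold. Gstp2 was at 18.2, 29.9 and 7.65 CPM, at 3.52 and 77.1 CPM, and at 5.85, 15.1 and 2.74 CPM, with RD tumour 2 highest and WD tumour 3 lowest.

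The other classes of glutathione transferase were less uniform. Gstz1, which isomerises maleylacetoacetate in the breakdown of tyrosine, was at 197, 245 and 300 CPM in RD no tumour, 60.3 and 217 CPM in RD tumour, and 309, 174 and 329 CPM in WD tumour. Gstm1, a mu-class enzyme that acts on epoxides, was at 48.4, 181 and 165 CPM, at 182 and 158 CPM, and at 287, 72.0 and 177 CPM. Gsto1, an omega-class thioltransferase, was at 11.5, 20.01 and 18.8 CPM, at 57.4 and 24.2 CPM, and at 22.3, 9.61 and 17.7 CPM. Of these, only the Gsto1 values of the RD tumour mice lay above all others. Gstm5, another mu-class member, was at 3.54, 3.39 and 2.76 CPM in RD no tumour, 5.34 and 1.86 CPM in RD tumour, and 7.76, 10.3 and 4.77 CPM in WD tumour. WD tumour mice lay above RD no tumour mice, with a log2 difference of 1.22 (SE 0.48, adjusted p = 1.00, edgeR quasi-likelihood test). Gstt1, a theta-class member, was at 4.77, 43.5 and 32.0 CPM, at 12.9 and 23.2 CPM, and at 101, 14.5 and 77.9 CPM, and all groups overlapped, with a log2 difference of 2.00 (SE 1.06, adjusted p = 0.519, edgeR) between WD tumour and RD tumour. Gsta1, an alpha-class member, was at 0.0770, 0.231 and 0.213 CPM, at 1.52 and 0.517 CPM, and at 1.24, 0 and 0.313 CPM. Both RD tumour mice lay above the RD no tumour mice, with a log2 difference of 2.29 (SE 1.17, adjusted p = 0.418, edgeR).

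Among the sulfotransferases, Sult1a1, which acts on phenols, measured 604, 397 and 340 CPM in RD no tumour, 144 and 406 CPM in RD tumour, and 334, 299 and 520 CPM in WD tumour. Sult1e1, the estrogen sulfotransferase, measured 412, 110 and 245 CPM, 174 and 112 CPM, and 121, 54.7 and 256 CPM in the same order. Both overlapped across all groups. Sult2a8, which sulfates bile acids, measured 26.4, 439 and 711 CPM in RD no tumour, 0.18 and 341 CPM in RD tumour, and 509, 73.4 and 495 CPM in WD tumour. Its spread within groups was wider than any distance between their means: the low libraries were again RD tumour 1, RD no tumour 1 and WD tumour 2.

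In RD tumour 1, where Sult2a8 was lowest, its relatives Sult2a1, Sult2a5 and Sult2a2 were at their highest and Sult2a7 at its lowest. Sult2a1, a hydroxysteroid sulfotransferase known as female-predominant in mouse liver, was at 23.8 CPM in RD tumour 1 and at 0 to 2.58 CPM in the other 7 mice. Sult2a5 was at 11.3 CPM in that library and at 0 to 1.41 CPM elsewhere, and Sult2a2 at 4.06 CPM, with 0.10 to 3.60 CPM elsewhere. The log2 difference for RD tumour against RD no tumour was 5.13 (SE 2.10, adjusted p = 0.386) for Sult2a1 and 5.46 (SE 2.05, adjusted p = 0.374) for Sult2a5 in edgeR's quasi-likelihood test. Without RD tumour 1 these became -4.84 and -3.46, so that 1 library set the direction. Gsto2 was at 7.34 CPM in RD tumour 1 and 0.21 to 1.06 CPM elsewhere, with a difference of 2.43 that became -1.62 without it. Without RD tumour 2, RD tumour 1 alone stood for its group. The differences from RD no tumour were then 6.12 for Sult2a1, 6.44 for Sult2a5, 3.49 for Sult2a2 and 3.37 for Gsto2.

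Sult2a7 was at 1.77, 2.92 and 9.51 CPM in RD no tumour, 0.06 and 1.96 CPM in RD tumour, and 8.43, 1.04 and 19.6 CPM in WD tumour. Its log2 difference was -2.48 (SE 1.55, adjusted p = 0.458, edgeR) between RD tumour and RD no tumour, and -6.30 to -1.41 with each mouse left out in turn. Between WD tumour and RD tumour it was 3.45 (SE 1.61, adjusted p = 0.519, edgeR), and 2.40 to 7.28 with a mouse left out. Sult2a3, tested in whole libraries only, was at 0.0686, 0.0883 and 0.186 CPM in RD no tumour, 0.0582 and 0.0367 CPM in RD tumour, and 0.557, 0 and 2.72 CPM in WD tumour, so that 2 of the WD tumour mice were above all others and the third had none. It had 3 UMIs in RD tumour and 77 in WD tumour, a ratio of 24.3 (95% counting interval 8.01 to 120). Sult1c2, of a subfamily that acts on phenolic compounds, was at 0.770, 1.54 and 2.98 CPM, at 0 and 3.00 CPM, and at 6.18, 2.86 and 4.46 CPM, with a log2 difference of 1.30 (SE 1.19) between WD tumour and RD no tumour.

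Sult3a1, which sulfates amines and is also female-predominant in mouse liver, was at 2.00, 0.23 and 1.65 CPM in RD no tumour, 0.06 and 0 CPM in RD tumour, and 2.81, 4.29 and 7.51 CPM in WD tumour. The 3 groups did not overlap: the WD tumour mice were highest and the RD tumour mice lowest. RD tumour had 1 UMI in both mice together, against 60 in RD no tumour and 154 in WD tumour, which gives ratios of 35.0 (95% counting interval 6.05 to 1407) for RD no tumour and 137 (24.3 to 5452) for WD tumour over RD tumour. In edgeR's quasi-likelihood test the adjusted p was 0.302 for RD tumour against RD no tumour and 0.519 for WD tumour against RD tumour. DESeq2 gave 0.0439 and 0.00535, so the call depended on the tool. Without RD tumour 2, RD tumour 1 alone stood for its group. The log2 differences between WD tumour and RD tumour were then 6.3 for Sult3a1, 2.1 for Gstp3 and -3.9 for Gsto2. Intervals cover counting error only.

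Sult5a1 was at 2.39, 5.16 and 18.2 CPM in RD no tumour, 0.06 and 1.86 CPM in RD tumour, and 1.01, 0.39 and 2.35 CPM in WD tumour. Every RD no tumour mouse was above every other mouse. By edgeR's quasi-likelihood test its log2 difference from RD no tumour was -2.80 (SE 1.20, adjusted p = 1.00) in WD tumour and -3.41 (SE 1.47, adjusted p = 0.386) in RD tumour mice. With each mouse left out in turn the first ran from -3.60 without WD tumour 3 to -1.58 without RD no tumour 3. The second ran from -7.15 without RD tumour 2, where RD tumour 1 alone stood for its group, to -2.17 without RD no tumour 3.

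**Figure D3:**
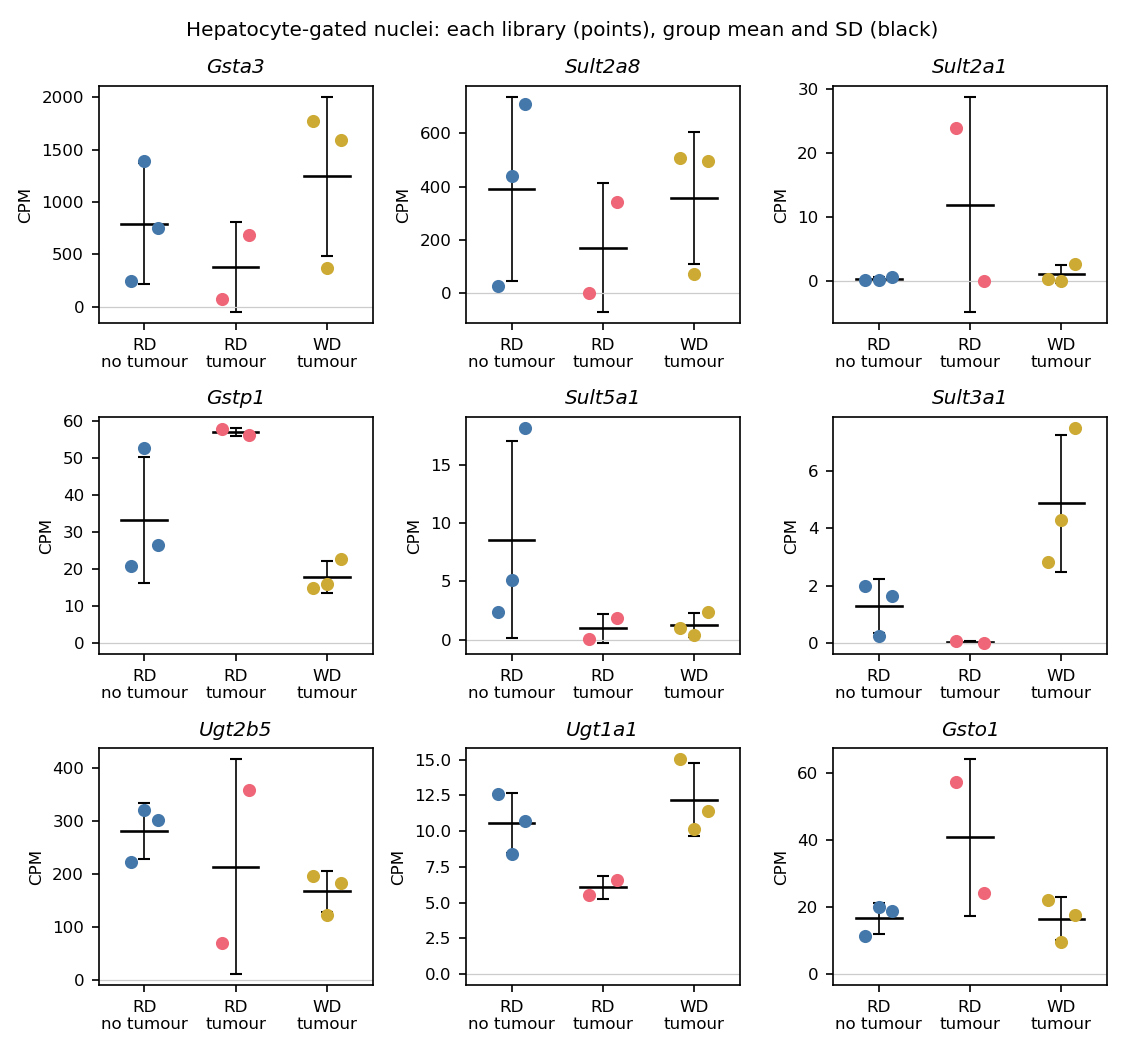
CPM in hepatocyte-gated nuclei of Gsta3, Sult2a8, Sult2a1, Gstp1, Sult5a1, Sult3a1, Ugt2b5, Ugt1a1 and Gsto1, 1 point per mouse by group, with each group's mean and SD. Sult3a1 and Sult5a1 show RD no tumour apart from WD tumour, and Sult2a1 shows a single high mouse, RD tumour 1 at 23.8 CPM.

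The 3 group comparisons asked how members differ with continued diet, and with tumours after diet reversal. They share mice: WD tumour and RD tumour were each set against RD no tumour, then against each other. WD tumour and RD no tumour mice differed in both diet and tumours, which cannot be told apart in that comparison. No member and no gene passed an adjusted p of 0.05 in any of the 3 comparisons, in whole libraries or hepatocyte-gated nuclei (edgeR quasi-likelihood, percent called 0 for members and for all genes). A p that misses the threshold does not show that the values were equal. In hepatocyte-gated nuclei 5 of 52 members had an unadjusted p under 0.05 between WD tumour and RD no tumour, beside 3.75% of all genes: Gstm5, Gstp1, Gstp3, Sult3a1 and Sult5a1. Between RD tumour and RD no tumour 4 did, beside 12.9% of all genes: Sult2a1, Sult2a5, Sult3a1 and Ugt1a1. Between WD tumour and RD tumour 5 did, beside 9.2% of all genes: Gsto2, Gstp1, Gstp3, Sult3a1 and Ugt1a1. In whole libraries the counts were 2, 4 and 8 of 53 members, beside 2.75%, 6.7% and 7.56% of genes. DESeq2 called no member but Sult3a1, beside 0.189%, 0.351% and 0.571% of genes in whole libraries and 0.399%, 3.16% and 0.663% in hepatocyte-gated nuclei, in the same order. In whole libraries it called Sult3a1 only between WD tumour and RD tumour (adjusted p = 0.00245). Without RD tumour 2, so that RD tumour 1 alone stood for its group and was assumed to vary like the others, edgeR called 14 and 10 of 55 members in whole libraries in the last 2 comparisons (beside 4569 and 4438 of 19873 genes). In hepatocyte-gated nuclei it called 22 and 17 of 54 (beside 5384 and 4421 of 18150 genes). Without RD tumour 1, RD tumour 2 alone stood for its group, and edgeR called hardly any gene, member or not.

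For a few members the CPM of the groups did not overlap in hepatocyte-gated nuclei. Gstm5, Sult2a2 and Sult3a1 were higher in every WD tumour mouse than in every RD no tumour mouse (6.69% of genes were), and Sult5a1 and Ugt2b5 lower (5.26%). For RD tumour against RD no tumour, 5 members were higher (16.1% of genes): Gsta1, Gsta4, Gstm2, Gsto1 and Gstp1. There 4 were lower (7.78%): Sult3a1, Sult5a1, Ugt1a1 and Ugt3a1. Of WD tumour mice set against RD tumour mice, 4 members were higher (9.22%), namely Gstp3, Sult3a1, Ugt1a1 and Ugt3a1, and Gsto1 and Gstp1 were lower (16.6%).

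As a description, the median log2 difference of the 52 members in hepatocyte-gated nuclei was 0.02 between WD tumour and RD no tumour mice, with -0.01 over all genes, and 26 members lay on each side. For RD tumour against RD no tumour it was -0.69, with -0.02 over all genes: 38 members were lower and all 18 Ugt members tested were lower, with a Ugt median of -1.18. Without RD tumour 1 the members' median was -0.31 and the Ugt median -0.30, with 13 of 18 Ugt lower. For WD tumour against RD tumour the medians were 0.66 for members and -0.02 for all genes, and 0.29 for members without RD tumour 1. The hepatocyte markers themselves had a median of -0.77 in RD tumour against RD no tumour, with 9 of 10 lower, while all 9 stellate markers and 9 of 10 endothelial markers were higher in the same hepatocyte-gated nuclei. The part of these marker shifts in the members' values was not tested. In whole-library sums, fewer nuclei of a type and less RNA per nucleus cannot be told apart.

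Genes of the same pathway were read from 6 lists covering the supply of glutathione, UDP-glucuronate and PAPS, other conjugating enzymes, regulators and exporters. None of their genes tested in hepatocyte-gated nuclei passed the threshold in a group comparison. Between WD tumour and RD no tumour the counts at an unadjusted p under 0.05 were 0 of 16 for glutathione supply, 1 of 8 for UDP-glucuronate supply, 0 of 11 for PAPS, 2 of 21 for other conjugating enzymes, 0 of 20 for regulators and 1 of 10 for exporters, beside 3.75% of all genes. Between RD tumour and RD no tumour they were 3, 0, 1, 2, 2 and 3 of the same lists, beside 12.9% of genes, and between WD tumour and RD tumour 3, 1, 1, 1, 2 and 0, beside 9.2%. The exporter in the first comparison was Slco1a1, the male-predominant hepatic uptake transporter for organic anions, at 384, 413 and 452 CPM in RD no tumour, 122 and 107 CPM in RD tumour, and 146, 206 and 121 CPM in WD tumour. All RD no tumour mice lay above the others, with adjusted p = 0.861 for WD tumour and 0.214 for RD tumour against them in edgeR's quasi-likelihood test. Ggt1, which splits glutathione outside the cell, was at 2.24 and 5.89 CPM in RD tumour and at 0 to 0.308 CPM in the other 6 mice (adjusted p = 0.214 between RD tumour and RD no tumour). The acinar markers summed to 352 CPM in hepatocyte-gated nuclei of RD tumour 2 and to 3.27 to 8.88 CPM in the other 7 mice, with RD tumour 1 at 3.27, and their part in the Ggt1 values was not tested.

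Cell classes were set apart with marker genes, none of which is a member, and each class was compared with the hepatocyte-gated nuclei of the same 8 mice. The classes were endothelial (9789 nuclei), stellate or fibroblast (6566), macrophage (8016), cholangiocyte (1109), T or NK (1091) and B (811). In RD tumour 1 most nuclei of every such class had only the 2 markers required. These were 130 of 135 B, 50 of 53 cholangiocyte, 52 of 61 T or NK and 1871 of 2731 endothelial nuclei, among others. With 3 markers required, only 8 B, 9 cholangiocyte and 16 T or NK nuclei were gated in that mouse. Members were mostly lower outside hepatocytes, but not by much: the median log2 difference of members lay between -0.40 in endothelial nuclei and -0.70 in macrophages, beside -0.05 to -0.16 over all genes. Hepatocyte markers, which the gate used, took a median 2.00% to 4.55% of UMIs in the other classes, against 2.26% to 7.25% in hepatocyte-gated nuclei. RNA free in the suspension puts hepatocyte UMIs into other nuclei, and its part in the members' values was not tested.

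By edgeR's quasi-likelihood test, 22 of 43 members tested were lower in endothelial nuclei (25.8% of all genes were lower), 23 of 42 in stellate or fibroblast nuclei (24.4%), 33 of 42 in macrophages (30%), 12 of 39 in cholangiocytes (11.0%), 16 of 40 in T or NK nuclei (18.0%) and 14 of 36 in B nuclei (14.3%). Of 44 members tested in at least 1 class, 36 were called in at least 1, beside 75.3% of genes, and of 36 tested in all 6, 8 were lower in all 6, beside 2.47% of genes: Gsta3, Sult1a1, Sult1d1, Sult1e1, Sult2a8, Ugt2b36, Ugt2b5 and Ugt3a2. Sult2a8 had a median of 390 CPM over the mice in hepatocyte-gated nuclei, against 278 CPM in endothelial nuclei and 192 CPM in B nuclei. It fell by 0.83 in cholangiocytes (SE 0.14, adjusted p = 0.000183, edgeR) and by 1.14 in B nuclei (SE 0.20, adjusted p = 0.000187, edgeR) on the log2 scale.

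In macrophages Ugt1a10 fell by 1.36 (SE 0.38, adjusted p = 0.0110, edgeR), Gstp2 by 1.32 (SE 0.24, adjusted p = 0.00108, edgeR) and Ugt1a6a by 1.19 (SE 0.13, adjusted p = 0.000212, edgeR). In stellate or fibroblast nuclei Ugt1a10 fell by 1.56, Ugt1a9 by 1.23 and Gstp2 by 1.06 on the same scale. In T or NK nuclei Ugt1a9 fell by 2.02 and Sult1b1, a thyroid hormone sulfotransferase, by 1.18. Gstp2 also fell there by 1.18, but its call was lost without RD tumour 2 (adjusted p = 0.220), RD no tumour 1 (0.119) or WD tumour 1 (0.05002), all by edgeR. With at most 5% mitochondrial UMIs per nucleus, 8 members were called in T or NK nuclei in place of 17. Over all genes 2508 of 12967 were called, in place of 3819 of 13245. The calls of Ugt1a9 (-1.70, adjusted p = 0.0649), Sult1b1 (-1.31, 0.112) and Gstp2 (0.0930) in these nuclei were lost (edgeR). DESeq2 did not call Gstp2 there either (0.105). In endothelial nuclei Gstp2 fell by 0.66 and Ugt1a1 by 0.53 (SE 0.13, adjusted p = 0.00732, edgeR), and the fall of 0.59 in Ugt1a5 did not pass the threshold without RD no tumour 2, RD no tumour 3, WD tumour 1 or WD tumour 3 in turn (adjusted p = 0.0569 to 0.0846, edgeR), with at most 5% mitochondrial UMIs (0.0981) or by DESeq2 (0.0573). In cholangiocytes Ugt2b1 fell by 0.77 and Ugt2b36 by 0.62, the former not called under a stricter gate (-0.59, adjusted p = 0.111, edgeR). In B nuclei Sult1b1 fell by 1.56 and Ugt1a6a by 1.21, the former not called with at most 5% mitochondrial UMIs (-1.49, adjusted p = 0.0534, edgeR).

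Few members were higher outside hepatocytes. Sult2b1, which sulfates cholesterol, was at 13.6, 11.1 and 9.03 CPM in T or NK nuclei of RD no tumour, 7.76 and 11.7 CPM in RD tumour, and 17.2, 3.98 and 21.8 CPM in WD tumour, from 25 UMIs in all. In hepatocyte-gated nuclei it was at 0.225 to 1.76 CPM, so every mouse was higher in T or NK nuclei. The log2 difference was 3.92 (SE 0.58, adjusted p = 4.55e-05, edgeR quasi-likelihood test), beside 10.9% of all genes higher in T or NK nuclei. In stellate or fibroblast nuclei Gstt1, which acts on small halogenated molecules, was higher by 0.68, Gstm2 by 0.37 and Gstm1 by 0.25 (adjusted p = 0.0288, 0.0460 and 0.0469, edgeR), beside 20.2% of all genes. The call of Gstt1 was lost without RD tumour 2, RD no tumour 2, RD no tumour 3 or WD tumour 2 in turn (adjusted p = 0.0607 to 0.0701, edgeR), and with no filter on low counts (0.0573). DESeq2, which called 18.8% of genes higher, called Gstt1 but neither Gstm2 nor Gstm1 there, and the calls of Gstm2 and Gstm1 were lost without RD tumour 2, RD no tumour 1, RD no tumour 2, RD no tumour 3 or WD tumour 3 (adjusted p = 0.0799 to 0.167, edgeR), Gstm2 also without WD tumour 2 (0.0823) and Gstm1 without WD tumour 1 (0.0628). No member was higher in endothelial, cholangiocyte, macrophage or B nuclei by edgeR, where 16.7%, 7.48%, 23.4% and 9.63% of all genes were. None was at an unadjusted p under 0.05 either (19.3%, 11.2%, 25.6% and 12.8% of genes), nor by DESeq2 (15.9%, 7.72%, 23% and 10.4%).

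**Figure D4:**
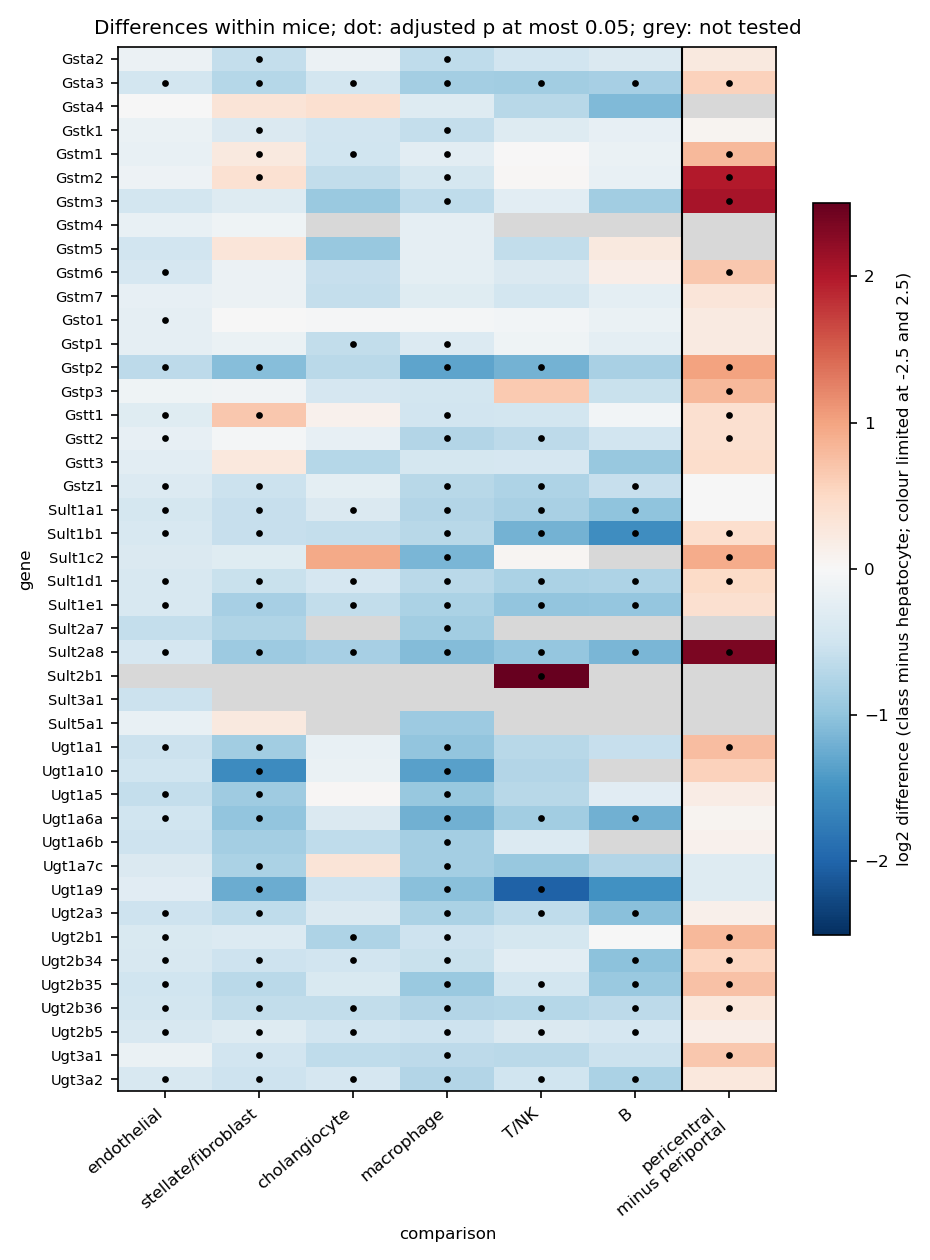
Log2 difference of each member between each gated class and hepatocyte-gated nuclei of the same mice, with the pericentral against periportal comparison in the last column. A dot marks an adjusted p at most 0.05 and grey a gene not tested. Most class cells lie below 0, and Sult2b1 in T or NK nuclei is at 3.92.

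Along the lobule, hepatocyte-gated nuclei with at least 10 UMIs of pericentral and periportal marker genes were ordered by the pericentral share of those UMIs, and the top and bottom parts of equal size were compared within mice (5334 nuclei each, 228 to 1366 per mouse). In RD tumour 1, 11188 of 12102 hepatocyte-gated nuclei had fewer than 10 such UMIs, and each part held 304 nuclei. Pericentral markers include Glul and Cyp2e1, and periportal ones Cyp2f2 and Hal, and no member is among them. By edgeR's quasi-likelihood test, 19 of 37 members tested were higher in pericentral nuclei, beside 10.5% of all 11851 genes, and none was lower, beside 9.05% of genes. DESeq2 called 16 higher, beside 8.03% of genes, and none lower. It called 1771 of 11851 genes in either direction. At an unadjusted p under 0.05 in edgeR 1 was lower, Ugt1a7c, beside 14.7% of genes. The members' median was 0.40, beside 0.01 over all genes. Median UMIs per nucleus ran from 1245 to 6324 in the pericentral part and from 2196 to 5526 in the periportal part. Within WD tumour 1 the median was 1245 UMIs in the pericentral part and 4316 in the periportal part. The median mitochondrial shares there were 9.90% and 2.52%. Pericentral medians of UMIs were also the lower ones in RD no tumour 2, RD no tumour 3 and WD tumour 3, and the higher ones in the remaining mice. The part of depth in the result was not tested.

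Sult2a8 had the largest difference of the members tested. Pericentral nuclei of RD no tumour had 61.4, 806 and 1366 CPM, of RD tumour 1.11 and 842 CPM, and of WD tumour 847, 160 and 924 CPM. Periportal nuclei had 13.5, 133 and 226 CPM, 0 and 80.7 CPM, and 250, 77.9 and 179 CPM in the same order. Each of the 8 mice was higher in pericentral nuclei, but the 1.11 and 0 CPM of RD tumour 1 lie near the floor. The log2 difference was 2.36 (SE 0.19, adjusted p = 5.50e-07, edgeR quasi-likelihood test).

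Gstm3 and Gstm2, both mu-class genes, were next. Gstm2 had 12.4, 19.6 and 28.3 CPM in pericentral nuclei of RD no tumour, 16.6 and 40.2 CPM in RD tumour and 23.7, 29.4 and 22.2 CPM in WD tumour, against 2.26 to 11.4 CPM in periportal nuclei of the 8 mice. It rose in pericentral nuclei by 1.99 (SE 0.23, adjusted p = 2.31e-05, edgeR), and was higher in 8 of 8 mice. Gstm3 had 1.68 to 35.5 CPM in pericentral and 0.345 to 26.0 CPM in periportal nuclei, was higher in 8 of 8 mice, and rose by 2.06 (SE 0.29, adjusted p = 0.000153, edgeR). Its smallest difference, in WD tumour 2, was 2.67 against 2.10 CPM. Gstm3 passed the filter on low counts in 3 of the 8 fits that left out a mouse, and rose in each of them. Gstm1 rose by 0.81 and Gstm6 by 0.68. Other members that rose were Gstp2 by 1.01, Sult1c2 by 0.94, Ugt2b1 by 0.81, Gstp3 by 0.80, Ugt1a1 by 0.76, Ugt2b35 by 0.73, Ugt3a1 by 0.66, Gsta3 by 0.58, Ugt2b34 by 0.54, Sult1d1 by 0.48, Sult1b1 by 0.41, Gstt2 by 0.40, Gstt1 by 0.40 and Ugt2b36 by 0.28 on the log2 scale.

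Several abundant members showed little difference along this axis. Gstz1 differed by -0.01 (SE 0.06), Sult1a1 by -0.02 (SE 0.11), Ugt1a6a by 0.06 (SE 0.08) and Gstk1 by 0.07 (SE 0.11). Sult5a1 did not pass the filter here: its CPM was 1.34, 0.577 and 4.87 in pericentral and 5.86, 8.75 and 35.9 in periportal nuclei of RD no tumour, and all 8 mice were higher in periportal nuclei. It had 36 UMIs in pericentral and 285 in periportal nuclei over all mice. The values were 0 and 1.30 CPM in RD tumour 1 and 1.01 and 1.31 CPM in WD tumour 1, near the floor. No test was run on Sult5a1.

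**Figure D5:**
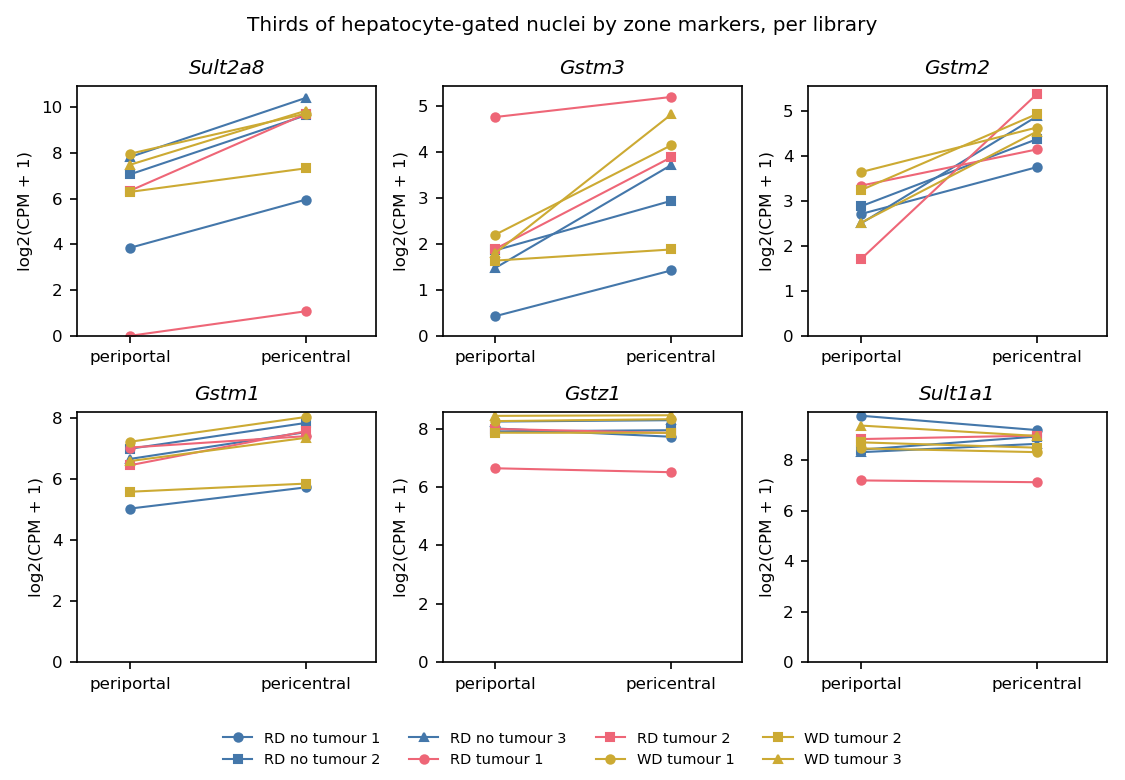
Log2(CPM + 1) of Sult2a8, Gstm3, Gstm2, Gstm1, Gstz1 and Sult1a1 in periportal and pericentral hepatocyte-gated nuclei, 1 line per mouse. The lines of Sult2a8, Gstm3 and Gstm2 rise in all 8 mice, while those of Gstz1 and Sult1a1 run both ways.

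Genes of the related lists were split along the lobule. In glutathione supply 3 of 13 genes tested were higher and 3 lower in pericentral nuclei, in UDP-glucuronate supply 2 higher and 1 lower of 7, and in PAPS and sulfatases none higher and 2 lower of 11. Among other conjugating enzymes 5 were higher and 2 lower of 19, among regulators 4 and 1 of 19, and among exporters 3 and 1 of 9. These counts stand beside 10.5% of genes higher and 9.05% lower. With each mouse left out in turn, 15 to 19 members were called between the 2 zones, beside 1690 to 2329 of all genes, in either direction.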

How the data were processed

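Nuclei from 8 livers were profiled, 1 library per mouse. The values are counts: the authors deposited raw UMI counts per gene and barcode made with Cell Ranger 7.0.0, per the file headers and the submitters' processing notes, which name build mm10. The annotation, the counting of introns, the treatment of strand and the calling of cells are not given in the sources used here.

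Barcodes with at least 300 genes were kept. A nucleus was gated to a class with at least 2 of its markers detected, or as hepatocyte with at least 2 hepatocyte markers and under 2 of every other class. Nuclei with 2 or more classes' markers, which include doublets, were left out, and no doublet caller was run. Counts were summed per mouse and class, so the mouse is the replicate, and p-values measure the spread between mice.

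The sums were tested with edgeR 4.0.16 (R 4.3.3; TMM, filterByExpr, quasi-likelihood F test, Benjamini-Hochberg over all genes tested, threshold 0.05). Group fits used all 8 mice, and class and zone fits had the mouse as a block. SE is the size of the log2 difference divided by the square root of F. The procedure was tested on simulated data. Named members were the 8 with the largest difference in each group comparison, the 3 with the largest called difference in each direction elsewhere, and the 3 with the highest mean CPM in each family. Others were chosen after their values were seen. Of the pathway lists, for which the rule named the 2 genes with the largest difference in each, the text gives counts and, as the genes with values, Slco1a1 and Ggt1. The members and lists were chosen with earlier results of these data known. DESeq2 1.42.0, other filters, gates and size factors, and leaving out each mouse were the alternatives.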

Additional observations from a re-analysis of the deposited data

How the results depend on the processing

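The 3 group comparisons gave 0 called genes in edgeR, and DESeq2 gave 36, 67 and 109 genes in whole libraries and 68, 539 and 113 in hepatocyte-gated nuclei (for WD tumour and then RD tumour, each set against RD no tumour, and for WD tumour set against RD tumour). With each mouse left out in turn, called genes ranged from 0 to 4569 and from 0 to 4438 in the last 2 comparisons of whole libraries, and from 0 to 5384 and from 0 to 4421 in those of hepatocyte-gated nuclei. The highest values came without RD tumour 2, where RD tumour 1 alone stands for its group and is assumed to vary like the others. Calls against hepatocytes moved from 2461 to 3889 with no low-count filter and to 1442 with at most 5% mitochondrial UMIs in cholangiocytes, and from 3819 to 2508 with the latter in T or NK nuclei. The cause was not tested.

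Directions reversed when a mouse was left out. In whole libraries the log2 difference ranged from -1.33 to 3.51 for Sult2a1 between WD tumour and RD no tumour. Between RD tumour and RD no tumour it ranged from -0.24 to 10.28 for Sult2a5, -5.40 to 7.15 for Sult2a1, -0.31 to 3.69 for Sult2a2 and -1.51 to 3.41 for Gsto2. For WD tumour against RD tumour it ranged from -4.72 to 2.54 for Sult2a5, -7.19 to 7.63 for Sult2a1, -3.65 to 1.28 for Gsto2 and -3.25 to 0.79 for Gstp2. In hepatocyte-gated nuclei the same ranges for RD tumour against RD no tumour were -3.46 to 8.93 (Sult2a5), -4.84 to 6.92 (Sult2a1), -1.59 to 3.49 (Sult2a2) and -1.62 to 3.37 (Gsto2). For WD tumour against RD tumour they were -4.34 to 6.60 (Sult2a1), -4.07 to 5.81 (Sult2a5), -3.91 to 1.07 (Gsto2) and -3.20 to 1.33 (Gstp2).

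Deviations of same-numbered mice from their group means correlated at -0.53 to 0.44 over 7 pairs. In groups this small the deviations of the mice are tied to each other. These values therefore cannot decide whether replicate numbers pair the mice. With the replicate number as a block, 0 genes were called in all 6 group fits by edgeR, and 339 to 969 had an unadjusted p under 0.05. With RD no tumour 1 and WD tumour 2 left out together, a setting chosen after seeing the data, 0 were called too. In simulated data of the design of WD tumour against RD no tumour in hepatocyte-gated nuclei (11852 genes), 28.36% of 4-fold and 89.39% of 16-fold changes were recovered, and 0% of 2-fold ones. The simulation held only genes above a cut on mean CPM. Sult3a1, Sult2a1 and Sult5a1, with means of 2.32, 3.44 and 3.92 CPM over the 8 mice, did not reach it. All libraries were given the same mean apart from the set changes, so a library that stands apart was not represented. Counts per library limit the rare Sult members.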
